A study of Mus musculus with 17 samples.

Results

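This comparison sets lungs of ovalbumin-exposed mice given a monoclonal antibody against RGMb (6 mice) beside lungs of ovalbumin-exposed mice given an isotype antibody (5 mice), across all 19751 genes with a named probe set. The 11 arrays are those that the titles label aRGMB treated or Isotype, out of 17 arrays in all. The other 6 came from mice that received saline at sensitization and challenge, and these serve here as the level from which each allergen-exposed mouse is measured. All mice were Balb/c, ovalbumin was given to both antibody groups at sensitization and challenge, and whole lung was taken at the same point of treatment. The mice fall into separate sets, which the series' design text calls replicates and which are called experiments 1 and 2 here: experiment 1 held 3 isotype and 3 anti-RGMb mice (numbered 1, 2 and 3), and experiment 2 held 2 isotype mice (1-2 and 2-2) and 3 anti-RGMb mice (1-2, 2-2 and 3-2). The labels name no antibody for the saline mice and no mice with anti-RGMb but without ovalbumin, so an action of the antibody on the unexposed lung and one on the response to ovalbumin cannot be told apart. The question, going by the title of the series, is what blocking the hub of neogenin, RGMb and bone morphogenetic proteins (BMPs) does in allergic airways.

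RGMb is a membrane-anchored co-receptor that presents BMPs to their receptors and binds neogenin, a receptor shared with netrins. PD-L2, a ligand of the inhibitory T cell receptor PD-1, also binds RGMb. In the lung of a sensitized mouse, inhaled ovalbumin brings in T helper 2 cells whose cytokines IL-4, IL-5 and IL-13 recruit eosinophils, turn club cells into mucus-making goblet cells and drive macrophages into the alternatively activated state.

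Each array gave 1 intensity per probe set, normalized by the authors. Array medians lay between 120 and 125 in experiment 1 and between 362 and 386 in experiment 2, so mice were compared within experiments and the experiment was a term of the fit. Differences are anti-RGMb minus isotype on the log2 scale, each with its standard error (SE) over the 11 mice, and a gene passed at an adjusted p under 0.05 over all genes (limma, Benjamini-Hochberg). Levels are given as log2 units above the mean of the saline mice in the same experiment, in the order of mice 1, 2, 3, 1-2, 2-2 and, for anti-RGMb, 3-2. Lung genes stood among the brightest on all 11 arrays, with Sftpc at or above the 99.98th percentile and the leukocyte gene Ptprc at the 91.35th to 96.79th. Isotype mouse 2-2 had the widest spread of values (3.34 log2 units between quartiles) and anti-RGMb mouse 3-2 the narrowest (2.83), and they had the lowest array weights (0.248 and 0.296). Anti-RGMb mouse 1 stood apart in another way: its interferon-stimulated genes lay 1.65 log2 units above saline on average, against -0.02 to 0.12 in the other 5 anti-RGMb mice. Where a named gene's call or a list's count moved without anti-RGMb mouse 1, or a list's count moved by over 1.5 times without both isotype mouse 2-2 and anti-RGMb mouse 3-2 (an alternative chosen after seeing the data, called "without both" in what follows), that value is given beside it. Nothing says whether the mice of a group were housed or treated together, so p-values measure the spread between these mice.

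With anti-RGMb, 3566 genes (18.1% of those tested) differed from isotype, 1895 higher (9.59%) and 1671 lower (8.46%). All 3566 differed in the same direction in both experiments, which a call over both nearly requires. Most differences were small: 2902 of the 3566 (81.4%) were under 1.5-fold, the median was 0.35 among the higher genes and -0.41 among the lower ones, and over all genes it was 0.03. At least 2-fold, the falls outnumbered the rises, 117 genes (0.592%) against 19 (0.0962%), and the rises fell to 11 without isotype mouse 1 or isotype mouse 1-2. Counting genes whose groups did not overlap in either experiment gave 1495 higher (7.57%) and 1434 lower (7.26%). The first principal component of the 11 arrays, after the experiment means were subtracted, held 47.0% of the variance and put every isotype mouse (4.19 to 32.6) on 1 side and every anti-RGMb mouse (-24.3 to -9.90) on the other. These are whole-lung RNA levels, in which fewer cells of a type and less RNA per cell cannot be told apart.

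**Figure D1:**
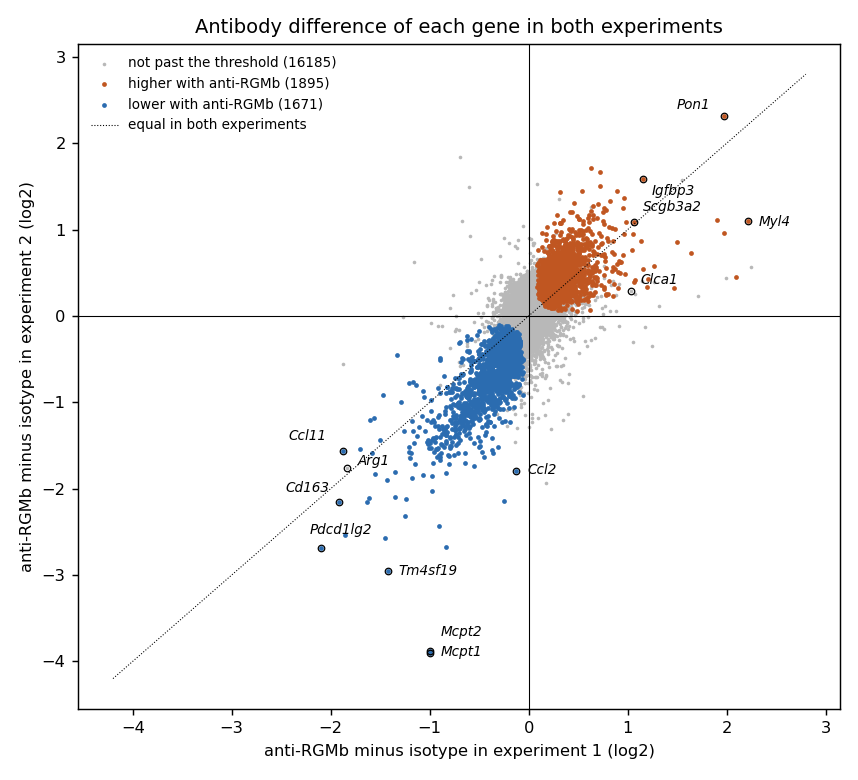
Each point is 1 of 19751 genes, placed by its anti-RGMb minus isotype difference (log2) in experiment 1 (x axis, 3 against 3 mice) and in experiment 2 (y axis, 3 against 2 mice), and coloured orange or blue where it was higher or lower past the threshold of the fit over all 11 arrays. The 3566 coloured genes lie at the lower left and upper right of the plot, and more of them reach below -1 than above 1; Mcpt1, Mcpt2, Tm4sf19 and Ccl2 lie below the dotted line of equal differences.

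The largest fall belonged to Pdcd1lg2 (probe set 10462398), which encodes PD-L2. It lay at 3.75, 3.65, 2.93, 4.08 and 4.06 log2 units above saline in the 5 isotype mice. In the 6 anti-RGMb mice it lay at 1.11, 1.54, 1.37, 1.57, 1.32 and 1.25. Every anti-RGMb mouse was below every isotype mouse and above every saline mouse of its experiment, and the difference was -2.36 ± 0.16 (5.14-fold lower, adjusted p = 5.5e-05). In saline mice Pdcd1lg2 was below the lower quartile of all probe sets in both experiments; it is 1 of 15 named genes of which this holds, and for these the height above saline is less certain. Of its partners, Pdcd1, which encodes PD-1, was lower by -0.83 ± 0.11 (adjusted p = 0.00049), while Cd274, which encodes PD-L1, did not pass (-0.37 ± 0.17, adjusted p = 0.17) except without anti-RGMb mouse 1 (-0.53, adjusted p = 0.0082). The 250 bases before the RefSeq start site of Pdcd1lg2 (GRCm38.p6, chr19:29410669-29410918, plus strand) are shown because this gene led the comparison; capitals mark TTC and GAA with 4 bases of any kind between them, the spacing that STAT6, the factor activated by IL-4 and IL-13, is known to prefer.
Pdcd1lg2: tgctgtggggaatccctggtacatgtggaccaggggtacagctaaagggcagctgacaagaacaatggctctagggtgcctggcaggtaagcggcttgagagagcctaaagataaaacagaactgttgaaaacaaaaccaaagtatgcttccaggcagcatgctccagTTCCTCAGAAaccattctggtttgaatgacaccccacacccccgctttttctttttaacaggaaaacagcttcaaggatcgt
The run holds 1 match, 82 to 73 bases before the start. Searched on both strands, these letters occur in 5.85% of the 32851 promoter windows of the same length, and the match is a description of the sequence.

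Next in size were genes of mast cells, macrophages and chemokines. The mucosal mast cell protease genes Mcpt1 and Mcpt2 were lower by -2.29 ± 0.46 and -2.28 ± 0.48 (adjusted p = 0.0048 and 0.0063). In saline and anti-RGMb mice of both experiments each was dimmer than the lower quartile of all probe sets, so the size of these differences and their rank are uncertain. Mcpt1 lay at 1.53, 1.56, 0.36, 4.08 and 4.18 above saline in the isotype mice and at 0.06, 0.25, 0.14, 0.36, 0.36 and -0.03 in the anti-RGMb mice. The isotype mice of experiment 2 were thus far above those of experiment 1, all anti-RGMb mice were near saline, and the groups did not overlap in either experiment. Tm4sf19, a membrane protein of the L6 family, lay at 2.30, 2.36, 1.40, 3.59 and 3.78 in isotype mice and at 0.55, 0.63, 0.61, 0.73, 0.73 and 0.73 in anti-RGMb mice, a difference of -2.11 ± 0.26 (adjusted p = 0.00035). Its deposited intensity was exactly 273.2 in all 3 anti-RGMb mice of experiment 2. Such equal values occurred for 147 probe sets in that group and for 0.77% to 6.62% of probe sets between any pair of arrays of an experiment, against 0 in pairs across experiments, and they lower the measured spread of the genes concerned.

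Cd163, the macrophage receptor for haemoglobin bound to haptoglobin, lay at 3.49, 3.23, 2.41, 3.08 and 3.46 in isotype mice. In anti-RGMb mice it lay at 0.56, 1.26, 1.57, 1.38, 0.62 and 1.33, below all isotype mice (difference -2.02 ± 0.23, adjusted p = 0.00023). The other large falls were AA467197 (-2.16 ± 0.22), the adhesion molecule Chl1 (-1.95 ± 0.21), Slc7a11 (-1.83 ± 0.19), which exchanges cystine for glutamate, and Inhba (-1.73 ± 0.23), which encodes the activin A subunit. They also included Ms4a4a (-1.68 ± 0.17), a membrane protein of macrophages, Timp1 (-1.68 ± 0.15), an inhibitor of matrix metalloproteinases, and Acod1 (-1.66 ± 0.34), which makes itaconate. In all of these the groups were separated in both experiments. In saline mice AA467197 and Chl1 were below the lower quartile of all probe sets in both experiments. The remaining 3 of the 15 largest falls, Cxcl13, Ccl11 and Ccl24, are chemokine genes.

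**Figure D2:**
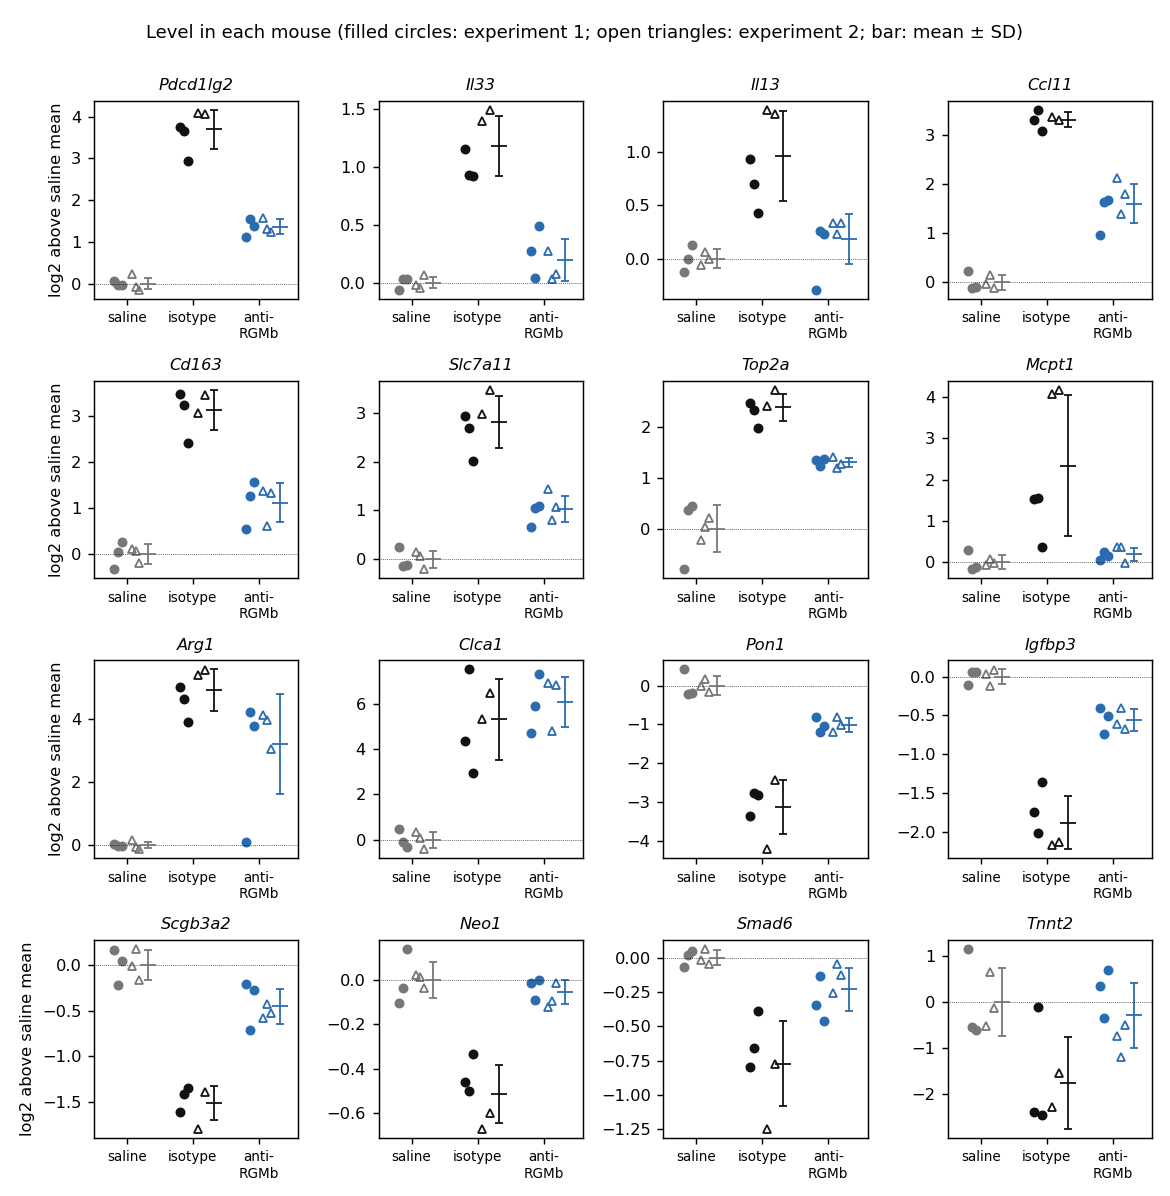
Level of 16 genes in each mouse, as log2 units above the mean of the saline mice in the same experiment (y axis; scales differ between panels), for saline, isotype and anti-RGMb mice; filled circles are experiment 1, open triangles experiment 2, and the bar beside each group is its mean ± SD. Pdcd1lg2, Il33, Ccl11, Cd163, Slc7a11 and Top2a show separate isotype and anti-RGMb groups with anti-RGMb nearer to saline, Pon1, Igfbp3, Scgb3a2 and Neo1 show the same from below, and Clca1 shows overlapping groups.

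Among type 2 cytokines and their receptor chains, 8 of 16 measured genes were lower and 0 higher (median -0.30), against 8.46% of all genes lower. Il13 had intensities of 117, 99.5, 82.2, 459 and 449 in the isotype mice and of 50.1, 73.5, 72.1, 220.0, 206 and 220.0 in the anti-RGMb mice. The groups did not overlap within either experiment, and the difference was -0.82 ± 0.13 (adjusted p = 0.0012). Il13ra2, the decoy receptor that IL-13 itself induces, was lower by -1.08 ± 0.10 (adjusted p = 0.00011) at very dim levels (intensities of 7.86 to 9.63 and 15.4 to 18.8 in the saline mice of experiments 1 and 2, and up to 22.0 and 59.8 in isotype mice), and Csf2rb, the chain shared by the receptors of IL-3, IL-5 and GM-CSF, by -0.75 ± 0.10. Il4 (-0.62 ± 0.16, adjusted p = 0.021) and Il5 (-0.39 ± 0.12, adjusted p = 0.039) passed with overlapping groups and at levels near background in saline mice. Il4 did not pass without isotype mouse 1-2 (adjusted p = 0.055). Il5 was lost when any 1 of anti-RGMb mice 3, 1-2, 2-2 and 3-2 or isotype mice 1, 1-2 and 2-2 was left out (adjusted p from 0.061 to 0.11). Without isotype mouse 1-2, and likewise without both, the list had 5 lower genes.

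The epithelial alarmin gene Il33 had log2 levels of 1.15, 0.93, 0.92, 1.40 and 1.49 above saline in isotype mice and of 0.27, 0.04, 0.49, 0.27, 0.04 and 0.07 in anti-RGMb mice. All anti-RGMb mice were below all isotype mice, with a difference of -0.99 ± 0.12 (1.99-fold lower, adjusted p = 0.00028). The other alarmins did not fall: Il25 differed by 0.02 (95% interval -0.17 to 0.22) and Tslp by 0.27 ± 0.12 (adjusted p = 0.18), neither past the threshold, and Il18 was higher by 0.91 ± 0.21 (adjusted p = 0.012). The list of chemokines of eosinophils, monocytes and T helper 2 cells, which also held chemokine receptors, had the second lowest median, -0.83. Of its 17 genes 15 were lower (10 without both), among them the receptor genes Ccr2, Ccr3, Ccr4 and Ccr8, named after their values were seen. Ccl11, which encodes eotaxin-1, lay at 3.31, 3.51, 3.09, 3.36 and 3.32 in isotype mice and at 0.96, 1.65, 1.68, 2.13, 1.39 and 1.80 in anti-RGMb mice. Its groups were far apart, and it differed by -1.74 ± 0.16 (3.34-fold lower, adjusted p = 0.00011).

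The eotaxin-2 gene Ccl24 (-1.64 ± 0.24) and Ccl8 (-1.59 ± 0.19), which acts on CCR8 of T helper 2 cells in mice, were lower by similar amounts. Ccl22, a ligand of CCR4, was lower by -0.81 ± 0.10, Ccl9 by -0.77 ± 0.08, and Cxcl13, the attractant of B cells, by -1.87 ± 0.13. Even so, Ccl8 stayed 4.83 ± 0.52 log2 units (SD, n = 6) above saline in anti-RGMb mice, beside 6.46 ± 0.33 (SD, n = 5) in isotype mice. In saline mice Ccl8 was below the lower quartile of all probe sets in both experiments, so these heights are less certain. Of genes of the type 1, type 17 and CXCR3 axes, 1 of 15 was lower, Cxcl9 (-1.27 ± 0.35, adjusted p = 0.024), and the list's median was -0.06. Cxcl9 was lost when any 1 of anti-RGMb mice 2, 3 and 2-2 or isotype mice 2, 1-2 and 2-2 was left out (adjusted p from 0.051 to 0.080), and the list then had 0 lower genes, as it did without both. With mouse 1 of the anti-RGMb group left out it had 4, without isotype mouse 1 it had 3 and without isotype mouse 3 it had 2. Ifng differed by -0.24 ± 0.09 (adjusted p = 0.086, and 0.0495 without isotype mouse 1) and Il17a by -0.06 ± 0.09 (adjusted p = 0.69).

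Macrophage genes fell unevenly. Markers of interstitial macrophages and monocytes were lower in 14 of 22 (median -0.57; Gas6, a ligand of TAM receptors, was higher by 0.27 but was lost when any 1 of 7 mice was left out, all except anti-RGMb mice 2 and 3-2 and isotype mice 1 and 3, or without both), and genes of macrophage fusion and lipid-associated macrophages in 14 of 18 (median -0.81), a count of 14 with each of the 11 mice left out in turn. Trem2, a lipid-sensing receptor, was lower by -1.20 ± 0.12, Acp5, a tartrate-resistant phosphatase, by -1.07 ± 0.10, Lgals3, which encodes galectin-3, by -0.87 ± 0.11 and Atp6v0d2, a proton pump subunit, by -0.73 ± 0.09. Trem2 was among the genes with equal intensity in all 3 anti-RGMb mice of experiment 2. C1qa, a complement chain made by tissue macrophages, was lower by -0.83 ± 0.09. The summed intensity of 6 defining markers of interstitial macrophages and monocytes ran from 4714 to 6636 in isotype mice and from 3309 to 3568 in anti-RGMb mice of experiment 1, against 1073 to 1255 in saline mice. In experiment 2 it ran from 19250 to 23570 in isotype mice and from 11360 to 14830 in anti-RGMb mice, without overlap.

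The sum of 7 alveolar macrophage markers showed no such shift. It ran from 4644 to 5164 in isotype and from 4558 to 5472 in anti-RGMb mice of experiment 1, and from 15360 to 16310 and from 15700 to 16980 in experiment 2. Of these markers Siglecf is also an eosinophil marker and Cidec also an adipose marker. The part of other cells in the sum was not tested. In a longer list of alveolar macrophage markers 5 of 19 genes were lower and 2 higher, and 8 were lower without anti-RGMb mouse 1. The lower ones included Itgax, the integrin CD11c (-1.04 ± 0.09), and Fabp5 (-0.75 ± 0.10), a fatty acid carrier, and Cidec, a lipid droplet gene, was higher (0.71 ± 0.16). The other higher gene, Flt1, also stood in the list of endothelial and lymphatic markers and was named after its values were seen. Lysosomal enzymes and membrane proteins were lower in 18 of 20 genes (median -0.51), among them Gusb (-0.66 ± 0.06), Gla (-0.84 ± 0.10) and Lgmn (-0.68 ± 0.07). Genes of haem, iron and cystine handling were lower in 7 of 19 and higher in 1 (2 without isotype mouse 3), with the haem-degrading enzyme Hmox1 at -0.90 ± 0.10 and the transferrin receptor Tfrc at -0.82 ± 0.11.

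The list of alternatively activated macrophage and chitinase-like genes had all differences below 0. Of its 15 genes, 6 were lower past the threshold (median -0.50). These held Cish and Socs1, feedback genes of cytokine signalling that are not particular to macrophages, named after their values were seen. They also held the mannose receptor Mrc1 at -0.96 ± 0.09, with isotype mice from 1.40 to 1.80 above saline and anti-RGMb mice from 0.37 to 0.90. Arg1, which encodes arginase 1, lay at 5.04, 4.66, 3.93, 5.42 and 5.58 in isotype mice and at 0.10, 4.23, 3.80, 4.15, 3.99 and 3.06 in anti-RGMb mice. Anti-RGMb mouse 1 was at the saline level and the other 5 lay 3.06 or more above it, so the pooled difference of -1.80 ± 0.60 did not pass (adjusted p = 0.059). Without anti-RGMb mouse 1 the difference was -1.15 (adjusted p = 0.023), without anti-RGMb mouse 2 it was -2.18 (adjusted p = 0.026) and without anti-RGMb mouse 3 it was -2.07 (adjusted p = 0.044). Chil3, a chitinase-like protein, differed by -0.49 ± 0.20 (adjusted p = 0.13, and -0.26 with adjusted p = 0.028 without anti-RGMb mouse 1).

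Chil4 differed by -1.40 ± 0.49 (adjusted p = 0.072) and passed without anti-RGMb mouse 3, isotype mouse 3 or anti-RGMb mouse 1-2 (differences from -1.73 to -1.61, adjusted p from 0.025 to 0.048), and Retnla differed by -0.56 ± 0.26 (adjusted p = 0.18). Both groups stood above saline for Chil3 (3.92 ± 0.19 and 3.49 ± 0.65, SD) and Retnla (4.80 ± 0.87 and 4.13 ± 0.72, SD). Other genes of arginine handling were lower past the threshold: Arg2, the mitochondrial arginase, by -0.80 ± 0.08 and the arginine transporter Slc7a2 by -1.01 ± 0.11. That list had 3 of 15 lower genes, and 5 without anti-RGMb mouse 2 or 3.

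Granulocyte genes were lower in part. Of 14 eosinophil markers 8 were lower (median -0.47). Epx, the eosinophil peroxidase, lay at 2.06, 1.62, 1.19, 1.75 and 2.18 in isotype mice and at -0.28, 0.74, 0.53, 1.41, 0.66 and 0.82 in anti-RGMb mice. The groups were separated in each experiment (-1.16 ± 0.21, adjusted p = 0.0030). Alox15, which makes 15-lipoxygenase products in eosinophils and macrophages, was lower by -1.23 ± 0.25 (adjusted p = 0.0056), whereas Prg2, the eosinophil major basic protein, differed by -0.46 (95% interval -1.17 to 0.25). The summed intensity of 6 defining eosinophil markers ran from 6702 to 8771 in isotype mice and from 1303 to 4632 in anti-RGMb mice of experiment 1, and from 15150 to 15520 and from 8992 to 12490 in experiment 2.

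Mast cell and basophil markers held 4 lower and 2 higher genes of 19 (21.05% and 10.53%, against 8.46% and 9.59% of all genes). Besides the mucosal proteases, Hdc, the enzyme that makes histamine (-0.46 ± 0.10), and the prostaglandin D synthase Hpgds (-0.53 ± 0.12) were lower, both named after their values were seen. The stem cell factor receptor Kit was higher by 0.33 ± 0.07 and the transcription factor Gata2 by 0.54 ± 0.09. In saline mice of experiment 1 Kit (1334 to 1468) and Gata2 (543 to 612) were bright, unlike Mcpt1 (11.5 to 15.9). Which cells held the RNA of Kit and Gata2 was not measured. Neutrophil markers were lower in 6 of 22 (27.27%, against 8.46% of all genes) and higher in 0, with a median of -0.15. Differences were above 0 in 9 of the 22, up to 0.77. The lower genes with the smallest p included the ligands of CXCR2 Cxcl3 (-1.21 ± 0.22) and Cxcl5 (-1.08 ± 0.18) and the decoy receptor Il1r2 (-0.76 ± 0.11). The summed intensity of 5 neutrophil markers ran from 3112 to 3494 in isotype mice and from 1213 to 3042 in anti-RGMb mice of experiment 1, and from 10510 to 12170 and from 7386 to 10440 in experiment 2.

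Dendritic cell markers were lower in 10 of 23 genes (median -0.28), with Irf4, the factor of T helper 2-priming dendritic cells, at -1.18 ± 0.10 (adjusted p = 9.4e-05). None of 6 defining dendritic cell markers passed, and their sum ran higher with anti-RGMb in experiment 1 (980.1 to 1429 against 837 to 989 in isotype mice, overlapping) and lower in experiment 2 (4020 to 4650 against 4533 to 5519, overlapping). Among class II antigen presentation genes 4 of 9 were lower, including the class II transactivator Ciita (-0.75 ± 0.12) and the protease Ctss (-0.77 ± 0.09). Regulatory T cell markers were lower in 10 of 19 and higher in 1, and in 0 when any 1 of anti-RGMb mice 2, 1-2 and 2-2 or isotype mice 1, 2 and 2-2 was left out. Il2ra, the high-affinity chain of the IL-2 receptor, lay at 1.67, 1.85, 1.61, 2.05 and 2.31 in isotype mice and at 1.21, 0.71, 1.00, 0.99, 0.83 and 0.57 in anti-RGMb mice. No mouse of 1 group reached the other (-1.02 ± 0.14, adjusted p = 0.0005). Foxp3 was lower by -0.39 ± 0.09 (adjusted p = 0.0080), Ctla4 by -0.65 ± 0.15, Icos by -0.61 ± 0.13 and Il10 by -0.69 ± 0.17. Il10 was very dim in saline mice (13.4 in experiment 1 and 37.1 to 42.3 in experiment 2).

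For general T cell markers 7 of 21 were lower (median -0.32), and the count was 13 without anti-RGMb mouse 1, 4 without isotype mouse 1-2 and 3 without both. Their median difference was -0.07 in experiment 1 and -0.62 in experiment 2. The sum of 5 T cell markers overlapped in experiment 1 (1567 to 1797 in isotype and 1366 to 1964 in anti-RGMb mice) and not in experiment 2 (4392 to 6442 and 3045 to 3750). B cell markers were lower in 12 of 18 (median -0.40, and 7 genes without anti-RGMb mouse 1-2 or isotype mouse 1-2), with the adaptor Blnk at -1.17 ± 0.12, the low-affinity IgE receptor Fcer2a at -0.87 ± 0.14 and Cd22 at -0.48 ± 0.10. Natural killer and cytotoxic genes had 0 of 17 past the threshold in either direction (limma, 2 at an unadjusted p under 0.05), with a median of -0.03; 3 were lower without anti-RGMb mouse 1, 1 was lower without isotype mouse 1 or isotype mouse 3, and 1 was higher without both.

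Interferon-stimulated genes also had 0 of 21 past the threshold (limma, 0 at an unadjusted p under 0.05, median -0.07). Without anti-RGMb mouse 1, 11 of the 21 were lower, and with any other single mouse left out 0 passed. On the mean of the list, isotype mouse 1 lay at the saline level (-0.00269), below anti-RGMb mouse 2 (0.115), so the groups of experiment 1 also overlapped without anti-RGMb mouse 1. Zbp1, a nucleic acid sensor, lay at 0.72, 1.20, 0.79, 1.48 and 1.80 in isotype mice and at 2.21, 0.42, 0.16, 0.55, 0.30 and 0.38 in anti-RGMb mice. Anti-RGMb mouse 1 was above all isotype mice and the other 5 were below them. Over all mice Zbp1 differed by -0.53 ± 0.34 (adjusted p = 0.36), and without mouse 1 by -0.92 (adjusted p = 0.0017). Without that mouse the antiviral genes Mx1 (-0.80, adjusted p = 0.0088) and Oas1a (-0.61, adjusted p = 0.0053) also passed, against -0.42 ± 0.35 and -0.27 ± 0.30 with it. The same mouse had the lowest Arg1, Chil3, Alox15 and Il13 of its group.

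Genes of cell division fell together. All 27 measured genes of mitosis and chromosome segregation were lower (median -1.03, range -1.24 to -0.72), as were all 25 genes of DNA replication (median -0.61), against 8.46% of all genes. With each mouse left out in turn the mitosis count stayed at 27 and the replication count lay between 22 and 24. Top2a, the topoisomerase of dividing cells, lay at 2.47, 2.33, 1.99, 2.40 and 2.73 log2 units above saline in isotype mice. In anti-RGMb mice it lay at 1.34, 1.24, 1.37, 1.41, 1.19 and 1.27, within a narrow band between the saline and the isotype mice (-1.09 ± 0.10, 2.13-fold lower, adjusted p = 0.00011). The spindle motor Kif11 was lower by -1.18 ± 0.12, the kinetochore protein Nuf2 by -1.08 ± 0.11, cyclin A2 (Ccna2) by -1.03 ± 0.10, the ribonucleotide reductase subunit Rrm2 by -1.09 ± 0.10 and the flap nuclease Fen1 by -0.70 ± 0.07.

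Because these genes moved together, the 250 bases before the RefSeq start sites of 3 of them are shown (GRCm38.p6: Top2a, chr11:99024190-99024439, minus strand; Kif11, chr19:37376132-37376381, plus strand; Nuf2, chr1:169531465-169531714, minus strand), each written toward its gene. Capitals mark CCAAT, the box that NF-Y binds, and TTTGAA, the core of the cell cycle homology element, found on either strand.
Top2a: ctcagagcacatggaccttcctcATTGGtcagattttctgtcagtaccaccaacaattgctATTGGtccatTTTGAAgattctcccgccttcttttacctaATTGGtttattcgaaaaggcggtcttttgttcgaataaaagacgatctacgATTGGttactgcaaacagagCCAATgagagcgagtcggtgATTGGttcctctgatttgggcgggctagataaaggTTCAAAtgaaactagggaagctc
Kif11: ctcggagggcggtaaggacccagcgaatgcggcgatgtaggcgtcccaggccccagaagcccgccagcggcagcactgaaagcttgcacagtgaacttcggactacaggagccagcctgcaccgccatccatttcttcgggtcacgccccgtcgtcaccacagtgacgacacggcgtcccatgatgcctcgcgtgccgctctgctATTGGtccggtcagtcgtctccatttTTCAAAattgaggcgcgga
Nuf2: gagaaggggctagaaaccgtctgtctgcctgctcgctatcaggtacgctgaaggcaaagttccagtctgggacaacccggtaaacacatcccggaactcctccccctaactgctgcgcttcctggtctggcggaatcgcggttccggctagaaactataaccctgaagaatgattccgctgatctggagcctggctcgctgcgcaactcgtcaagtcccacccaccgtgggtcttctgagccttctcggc
The Top2a run holds 6 CCAAT and 2 TTTGAA matches, the Kif11 run 1 of each and the Nuf2 run none of these letters. Of the 27 mitosis genes 22 are in the promoter table, and CCAAT occurs before 17 of them (77.3%) and TTTGAA before 8 (36.4%), against 37.5% and 18.3% of the 27025 genes of the table. In the DNA replication list CCAAT occurs before 13 of 22 genes (59.1%) and TTTGAA before 2 (9.09%). For the chemokine list these are 3 of 12 (25%) and 5 of 12 (41.7%), so the TTTGAA share was not particular to genes of cell division. The shares describe the sequences, and nothing about binding was measured.

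Of 22 goblet cell and mucus genes 4 were lower and 1 higher (18.18% and 4.545%, against 8.46% and 9.59% of all genes). The list median was -0.07, and the best-known mucus genes gave no call. Clca1, a secreted goblet cell protein that IL-13 strongly induces, lay at 4.37, 7.53, 2.94, 5.35 and 6.49 above saline in isotype mice. In anti-RGMb mice it lay at 4.71, 5.93, 7.31, 6.94, 4.83 and 6.83, within the same range. Its difference was 0.70 ± 0.75 with a 95% interval from -0.94 to 2.35, too wide to show either a fall or a rise. The gel-forming mucins Muc5ac (-0.23, interval -1.86 to 1.41) and Muc5b (0.10, interval -1.12 to 1.33) had equally wide intervals. For Spdef, the goblet cell transcription factor, the interval was narrow (-0.01, from -0.22 to 0.21), but Spdef stood only 0.06 above saline in both groups.

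The lower genes were Slc26a4, Slc5a1, Galnt6 and the membrane mucin Muc4 (-0.62 ± 0.16, adjusted p = 0.018, named after its values were seen, and lost without isotype mouse 2-2). Slc26a4, which encodes the anion exchanger pendrin, lay at 5.12, 4.64, 4.65, 4.80 and 4.90 in isotype mice and at 2.31, 3.21, 3.79, 3.99, 2.56 and 3.40 in anti-RGMb mice. Every anti-RGMb mouse was below every isotype mouse (difference -1.63 ± 0.27, adjusted p = 0.0017), and the isotype mice scattered less for Slc26a4 (SD 0.20, n = 5) than for Clca1 (SD 1.79, n = 5). The sodium-glucose transporter Slc5a1 (-1.11 ± 0.11) and Galnt6 (-0.77 ± 0.13), an enzyme that starts O-linked glycans, were lower as well. The gene that was higher, Foxa2 (0.31 ± 0.06), encodes a factor known to restrain goblet cell formation. As 1 of 22 genes, it makes a smaller share of higher genes than among all genes.

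The largest rise was that of Pon1 (probe set 10542983), which encodes paraoxonase and stood in the club cell list. It lay at -3.37, -2.77, -2.83, -4.21 and -2.44 relative to saline in isotype mice. In anti-RGMb mice it lay at -0.81, -1.21, -1.03, -1.19, -0.81 and -1.03, all above the isotype mice and below the saline mean (2.13 ± 0.25, 4.37-fold higher, adjusted p = 0.00028). Scgb3a2, a secretoglobin of small airways, lay at -1.61, -1.41, -1.34, -1.79 and -1.39 in isotype mice and at -0.21, -0.71, -0.27, -0.57, -0.42 and -0.53 in anti-RGMb mice. These groups were also apart (1.07 ± 0.10, adjusted p = 0.00011). In all, 12 of 20 club cell and secretoglobin genes were higher (median 0.50), against 9.59% of all genes, with the cytochromes P450 Cyp4b1 at 0.78 ± 0.08 and Cyp2f2 at 0.55 ± 0.05. Scgb1a1, the most abundant club cell secretoglobin, did not pass (0.10 ± 0.06, adjusted p = 0.26). The 1 lower gene of the list, Sftpd, which encodes surfactant protein D, differed by -0.20 and was lost when any 1 of anti-RGMb mice 2 and 2-2 or isotype mice 1, 3 and 2-2 was left out, and without both. The sum of 3 club cell markers ran from 14360 to 14750 in isotype mice and from 18360 to 19160 in anti-RGMb mice of experiment 1, and from 24990 to 25750 and from 29540 to 32780 in experiment 2.

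Ciliated cell genes were higher in 22 of 30 (median 0.39), among them Tppp3 (0.73 ± 0.08), a tubulin-binding protein, and the dynein chain Dnaic1 (0.49 ± 0.08). That count fell to between 11 and 14 when any 1 of anti-RGMb mice 1, 3 and 1-2 or isotype mice 1 and 1-2 was left out. Alveolar genes were higher in 12 of 24 (median 0.16, with Sftpd again the 1 lower gene), with the water channel of type 1 cells Aqp5 at 0.44 ± 0.07 and the anchoring protein Akap5 at 0.66 ± 0.10. The sum of 3 type 1 cell markers ran from 5889 to 6981 in isotype mice and from 7217 to 7675 in anti-RGMb mice of experiment 1, and from 11100 to 11540 and from 14760 to 16220 in experiment 2. Fabp1 (1.14 ± 0.21), a fatty acid carrier, Dpep1 (1.11 ± 0.19), a membrane dipeptidase, Slc7a10 (1.07 ± 0.16), an amino acid transporter, Faim2 (1.14 ± 0.12) and 1810010H24Rik (1.09 ± 0.12) completed the 15 largest rises with the muscle, mesothelial, platelet and IGF genes described below.

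**Figure D3:**
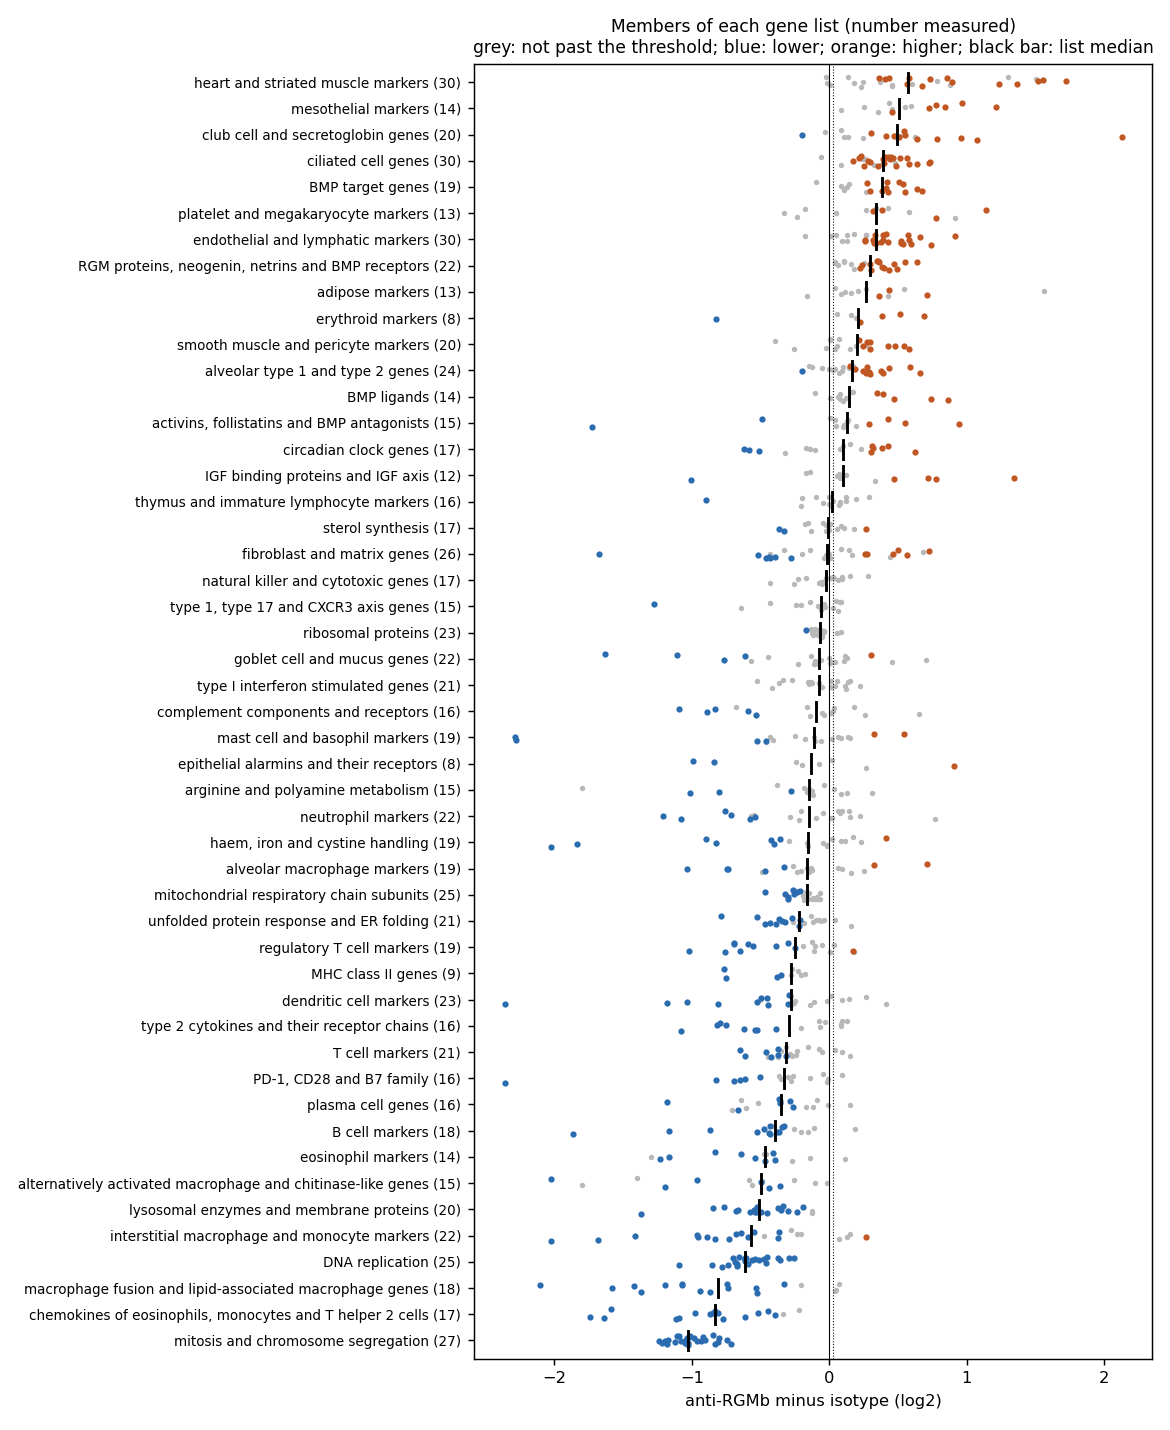
Members of 49 gene lists, sorted by list median; each dot is 1 gene at its anti-RGMb minus isotype difference (x axis, log2), grey where it did not pass, blue where lower and orange where higher, the black bar is the list median, the dotted line is the median of all genes (0.03) and the number of measured members is in brackets. Mitosis, chemokine, macrophage fusion and DNA replication lists lie lowest (medians from -1.03 to -0.61), and heart muscle, mesothelial, club cell and ciliated cell lists lie highest (0.39 to 0.57).

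Genes of the blocked hub itself were slightly higher with the antibody than with isotype. Rgmb had intensities of 302, 312 and 302 in isotype mice against 369, 371 and 342 in anti-RGMb mice of experiment 1, and of 1023 and 1028 against 1354, 1436 and 1244 in experiment 2. The groups did not overlap, at a difference of 0.31 ± 0.06 (adjusted p = 0.0030). Saline mice had 391 to 419 in experiment 1 and 1316 to 1548 in experiment 2, so no anti-RGMb mouse was above the saline range. The antibody binds the protein, so the transcript level does not check whether RGMb was blocked. Neo1, which encodes neogenin, lay at -0.46, -0.50, -0.34, -0.67 and -0.60 relative to saline in isotype mice and at -0.01, -0.09, 0.00, -0.12, -0.09 and -0.01 in anti-RGMb mice. All anti-RGMb mice were close to the saline mean and all isotype mice below it (0.47 ± 0.06, 1.39-fold higher, adjusted p = 0.00028). Rgma, its relative, was higher by 0.24 ± 0.07 (adjusted p = 0.031) but was lost when any 1 of 8 mice was left out, all except anti-RGMb mouse 3-2 and isotype mice 3 and 1-2 (adjusted p from 0.051 to 0.082).

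The list of RGM proteins, neogenin, netrins and BMP receptors also held Smad5, Smad9 and Twsg1, which are none of these. All of them were higher, Smad5 and Twsg1 are named after their values were seen, and Smad9 is counted again among the target genes below. Of the 22 genes of the list 14 were higher and 0 lower (median 0.30). They include the BMP co-receptors endoglin (Eng, 0.44 ± 0.07) and betaglycan (Tgfbr3, 0.55 ± 0.09), netrin-1 (Ntn1, 0.36 ± 0.06) and the type I receptor Bmpr1a (0.34 ± 0.09), while the type II receptor Bmpr2 did not pass (0.25 ± 0.09, adjusted p = 0.093, and 0.042 without isotype mouse 3). Among ligands 5 of 14 were higher: Bmp6 (0.74 ± 0.10) lay from -1.24 to -0.71 relative to saline in isotype mice and from -0.48 to -0.18 in anti-RGMb mice. Bmp3 was higher by 0.86 ± 0.11 and Bmp4 by 0.35 ± 0.10 (adjusted p = 0.027, and from 0.057 to 0.077 when any 1 of anti-RGMb mice 1, 1-2 and 2-2 or isotype mice 1, 2 and 2-2 was left out), and Bmp2 did not pass (0.17 ± 0.08, adjusted p = 0.20).

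Target genes that BMP signals induce were higher in 11 of 19 and lower in 0 (median 0.39), and tested in each experiment alone 0 passed in experiment 1 and 12 in experiment 2. Smad6, an inhibitory Smad made in response to BMPs, lay at -0.79, -0.66, -0.39, -1.25 and -0.77 relative to saline in isotype mice and at -0.34, -0.13, -0.47, -0.26, -0.05 and -0.13 in anti-RGMb mice. Within experiments, only anti-RGMb mouse 3 overlapped, with isotype mouse 3 (0.55 ± 0.13, adjusted p = 0.012). Smad7 was higher by 0.28 ± 0.07, Smad9 by 0.64 ± 0.11, Id3 by 0.42 ± 0.08, Hey2 by 0.51 ± 0.10 and the endothelial gene Tmem100 by 0.68 ± 0.12. Id1 was higher by 0.30 ± 0.08 (adjusted p = 0.017, and 0.055 without isotype mouse 1-2), whereas Id2 differed by -0.09 (95% interval -0.22 to 0.03). In anti-RGMb mice the mean of the target genes lay between -0.25 and -0.08 relative to saline, so it was nearer to saline than in isotype mice (-0.69 to -0.30) but not above it.

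Several of these genes are also endothelial: the sum of 4 endothelial markers ran from 10400 to 12510 in isotype and from 13010 to 14440 in anti-RGMb mice of experiment 1, and from 16560 to 18930 and from 25540 to 26050 in experiment 2, and its part in the BMP result was not tested. Activins and BMP antagonists moved both ways, 4 of 15 higher and 2 lower, and 1 lower when any 1 of isotype mice 2, 1-2 and 2-2 and anti-RGMb mouse 2-2 was left out, or without both. Inhba fell, as described above, while the activin B subunit Inhbb (0.55 ± 0.10) and the BMP antagonist Chrdl1 (0.94 ± 0.18) were higher.

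Endothelial and lymphatic markers were higher in 21 of 30 and lower in 0 (median 0.34), including the apelin receptor Aplnr (0.59 ± 0.06), Egfl7 (0.52 ± 0.06) and Robo4 (0.52 ± 0.07). The fibroblast and matrix genes went both ways, 6 higher and 7 lower of 26 (4 lower without any 1 of isotype mice 1 and 2-2 and anti-RGMb mouse 2-2, and 3 higher and 4 lower without both). The lower ones included the collagen chain Col5a2 (-0.46 ± 0.08) and the collagen cross-linking enzyme Lox (-0.52 ± 0.10). The higher ones included Tcf21, a factor of resident lung fibroblasts (0.72 ± 0.11), and also matrix genes, among them Npnt, which encodes nephronectin (0.56 ± 0.10), elastin (Eln, 0.50 ± 0.14, lost without any 1 of anti-RGMb mice 1-2 and 2-2 and isotype mice 1-2 and 2-2) and Col13a1 (0.27 ± 0.07), all 3 named after their values were seen. The binding protein Igfbp3 lay at -1.75, -2.02, -1.35, -2.18 and -2.13 in isotype mice and at -0.40, -0.74, -0.51, -0.61, -0.41 and -0.68 in anti-RGMb mice. No values overlapped (1.35 ± 0.12, 2.54-fold higher, adjusted p = 0.00011). Igfbp6 was higher as well (0.72 ± 0.14) while Igf1, the growth factor, was lower (-1.01 ± 0.10).

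Smooth muscle and pericyte markers were higher in 9 of 20, but in 4 without isotype mouse 1 in 3 without isotype mouse 1-2 and in 4 without both, with Synm, an intermediate filament protein, at 0.58 ± 0.07. Mesothelial markers were higher in 6 of 14, including Upk3b (1.21 ± 0.23) and Gpm6a (0.84 ± 0.13). Tested in each experiment alone, 7 were higher in experiment 1 and 1 in experiment 2, where the list medians were 0.89 and 0.33.

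Heart and striated muscle markers had the highest median of all lists (0.57), with 14 of 30 higher, with 8 without anti-RGMb mouse 3, isotype mouse 1 or isotype mouse 1-2, and with 9 without both. Tnnt2, cardiac troponin T, lay at -2.41, -0.11, -2.48, -2.30 and -1.56 relative to saline in isotype mice and at 0.35, -0.34, 0.71, -0.74, -1.20 and -0.51 in anti-RGMb mice. Isotype mouse 2 lay among the anti-RGMb mice, and the saline mice themselves spread over 0.74 (SD, n = 6). The difference was 1.55 ± 0.40 (adjusted p = 0.018, and 0.054 without isotype mouse 1-2). The myosin light chains of the atrium Myl4 (1.72 ± 0.43, adjusted p = 0.015) and Myl7 (1.52 ± 0.41, adjusted p = 0.022) were similar, and Myl7 was lost without anti-RGMb mouse 3, isotype mouse 1 or isotype mouse 1-2 (adjusted p from 0.052 to 0.057).

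Myoz2 (1.37 ± 0.43, adjusted p = 0.044) was lost when any 1 of 7 mice was left out (anti-RGMb 1, 3, 1-2 and 3-2, isotype 1, 3 and 1-2; adjusted p from 0.064 to 0.11), and Tnni3 (1.23 ± 0.35, adjusted p = 0.027) when any 1 of 6 was (anti-RGMb 1, 3 and 3-2, isotype 1, 3 and 1-2; adjusted p from 0.055 to 0.071). Actc1 (0.68 ± 0.13) and Cox8b (0.90 ± 0.14) were higher with each mouse left out in turn. The summed intensity of 5 heart muscle markers ran from 374 to 1479 in isotype mice and from 1369 to 3587 in anti-RGMb mice of experiment 1, against 1149 to 4032 in saline mice. In experiment 2 it ran from 1304 to 1951 and from 1989 to 3943, against 4103 to 10310. How much heart or vessel tissue each sample held was not measured, and its part in these differences was not tested. Of the platelet genes 4 of 13 were higher, including Ppbp (1.14 ± 0.35, adjusted p = 0.044), which was lost when any 1 of 9 mice was left out, all except anti-RGMb mouse 1 and isotype mouse 3 (adjusted p from 0.051 to 0.14), and the platelet count then fell to 0 or 1 (0 without both).

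**Figure D4:**
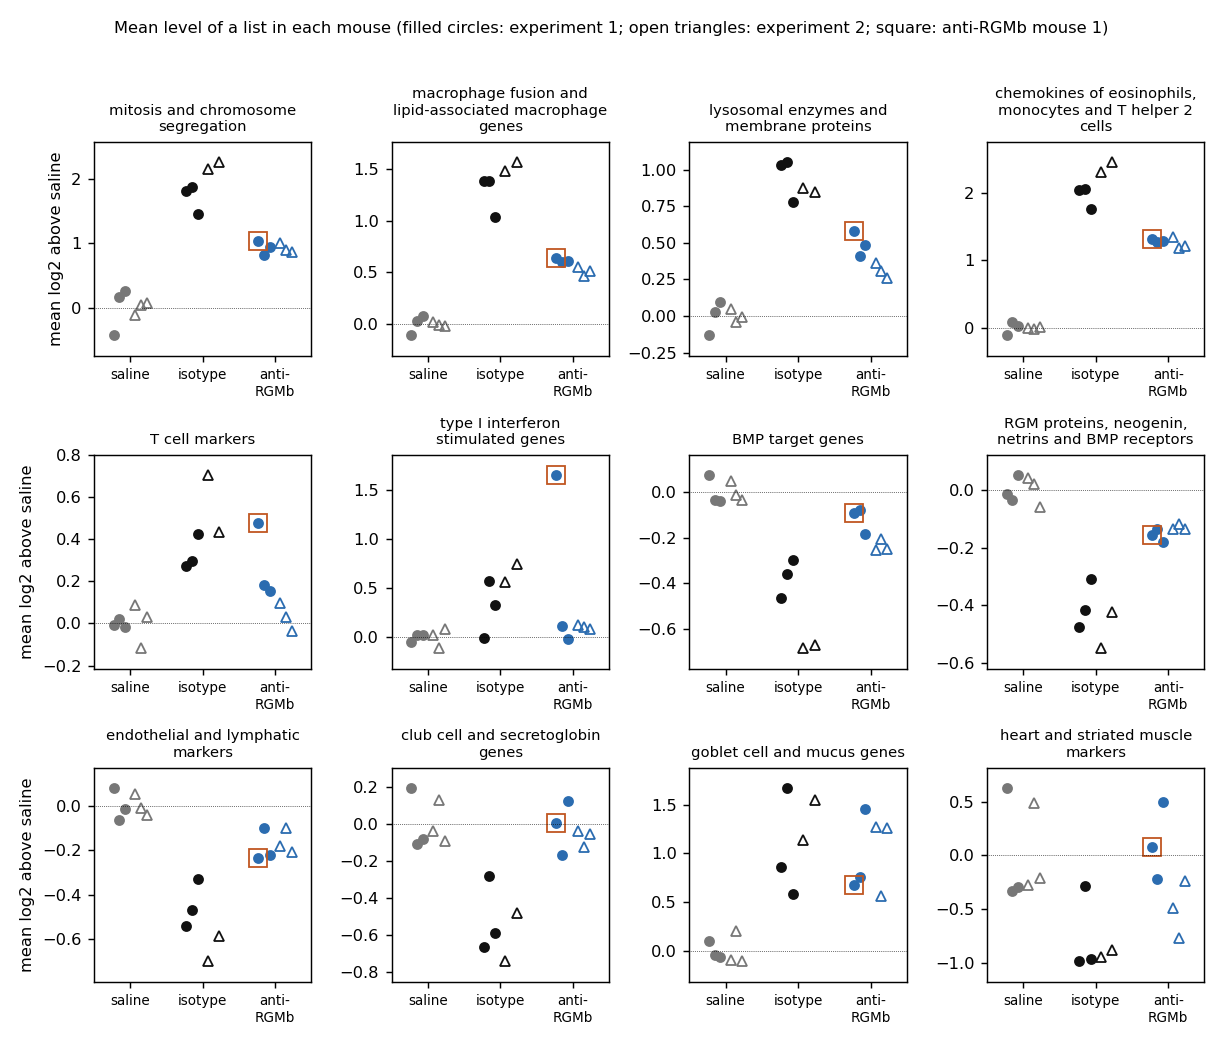
Mean level of 12 gene lists in each mouse (y axis, log2 above the mean of the saline mice in the same experiment; scales differ between panels), with filled circles for experiment 1, open triangles for experiment 2 and a square around anti-RGMb mouse 1. Isotype and anti-RGMb mice are apart for mitosis, macrophage fusion, lysosome, chemokine, BMP receptor and endothelial lists and overlap for the goblet cell list, and for heart muscle they are apart within each experiment but overlap across experiments; the squared mouse reaches 1.65 in the interferon list.

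The antibody differences of the experiments differed in size. The list medians of the experiments had opposite signs for interferon-stimulated genes (0.30 in experiment 1 and -0.45 in experiment 2) and natural killer genes (0.12 and -0.18), and, close to 0, for fibroblast genes (-0.07 and 0.01) and thymus genes (-0.0038 and 0.04). Across genes the SD of the difference was 0.21 in experiment 1 and 0.33 in experiment 2, and the differences of the experiments, which share no array, correlated at r = 0.704 over 19751 genes measured with the same probes. Tested alone, experiment 1 gave 329 higher (1.67%) and 452 lower (2.29%) genes, experiment 2 gave 1375 (6.96%) and 1852 (9.38%), and 674 genes passed in both. The difference between experiments itself passed for 2 genes (0.0101%, limma; 1771 at an unadjusted p under 0.05), Ccl2 and Havcr1. Ccl2, which attracts monocytes, lay at 0.84, 0.64 and 0.74 in isotype mice and at 0.89, 0.49 and 0.47 in anti-RGMb mice of experiment 1. In experiment 2 it lay at 2.45 and 2.89 against 0.86, 0.86 and 0.92. The groups overlapped in experiment 1 (-0.13 ± 0.13) and were far apart in experiment 2 (-1.79 ± 0.15), where the isotype mice were high, and the interaction passed (-1.67, adjusted p = 0.042).

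The pooled Ccl2 difference of -0.87 ± 0.26 (adjusted p = 0.036) was lost when any 1 of the 5 mice of experiment 2 was left out (adjusted p from 0.070 to 0.11). The related Ccl7 (-1.09 ± 0.30, adjusted p = 0.025; -0.25 and -2.15 in experiments 1 and 2) was lost with any 1 of the same 5 mice left out (adjusted p from 0.0505 to 0.085), and its interaction did not pass (adjusted p = 0.070). Havcr1, which encodes TIM-1 and was named after its values were seen, differed by -0.03 and -1.15 in experiments 1 and 2. Gpr84, a fatty acid receptor of myeloid cells (-0.65 and -1.59), and the carboxylesterase Ces2e (0.25 and 0.87) differed in size between experiments without passing (adjusted p of the interaction 0.070 for both).

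Within an experiment, the allergen difference (isotype minus saline) and the antibody difference use the same isotype arrays, so they were set side by side only across experiments. As the labels name no antibody for the saline mice, ovalbumin and the isotype antibody cannot be told apart in the allergen difference. The 200 genes most raised in isotype over saline mice of experiment 1 (median 1.93) differed by a median of -1.20 between anti-RGMb and isotype mice of experiment 2, and 194 of them were lower. The 200 genes most lowered (median -0.84) differed by 0.75, and 199 were higher. Read the other way, the 200 genes most raised in experiment 2 (median 2.26) differed by -0.80 with the antibody in experiment 1, with 195 lower, and the 200 most lowered (median -1.19) by 0.49, with 197 higher. The medians over all genes were 0.04 and 0.01. The correlation across the 19751 genes was -0.744 and -0.769.

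**Figure D5:**
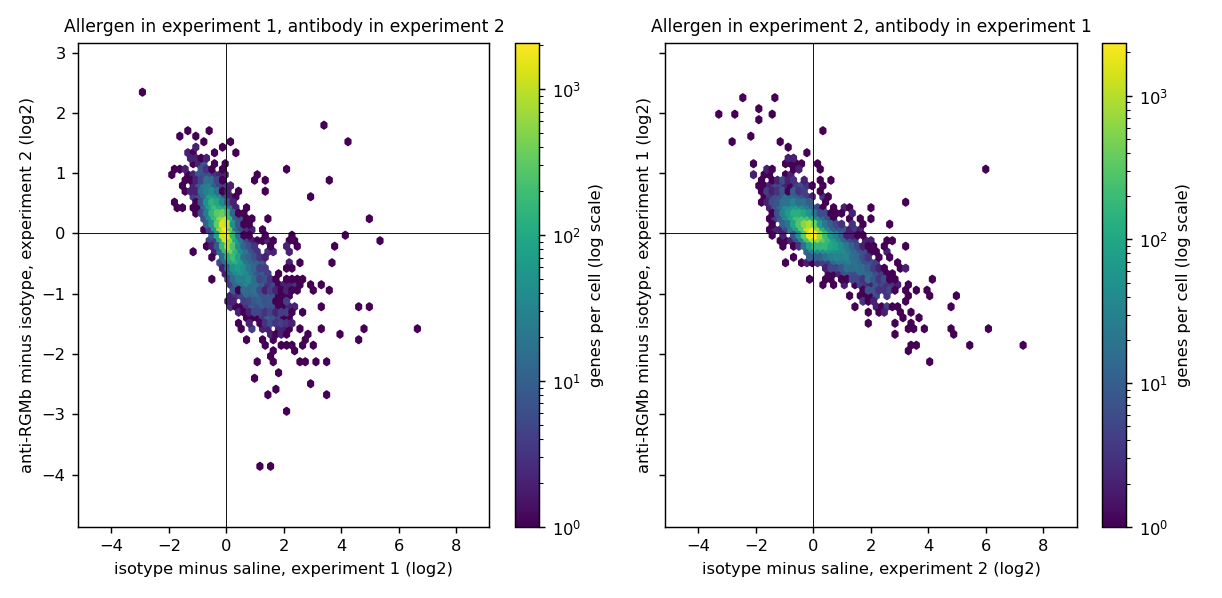
All 19751 genes by allergen difference (x axis, isotype minus saline, log2) in one experiment and antibody difference (y axis, anti-RGMb minus isotype, log2) in the other, so that no array enters both axes; colour gives the number of genes per hexagon on a log scale. In both panels the cloud runs from upper left to lower right, with r = -0.744 and -0.769 over all genes.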

How the data were processed

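Total RNA from whole lung, 1 array per mouse, was measured on Affymetrix Mouse Gene 1.0 ST arrays, per the labels' protocols. The deposited values are linear intensities that the authors normalized with RMA, per the submitters' processing notes (version not given in the sources used here). Whether RMA was run on each experiment apart is not stated. Values were taken as log2, and the log2 scale was not changed otherwise. Of 24679 probe sets 21354 carry 1 gene symbol, 1275 several and 2050 none. Symbols were updated through Entrez numbers (21277 matched RefSeq), and the brightest probe set was kept for the 893 genes with more than 1, which left 19751 genes. The fit (limma 3.58.1 in R 4.3.3, moderated, 2-sided) used the 11 allergen-exposed arrays with terms for antibody and experiment. Saline arrays were left out because they would lower the spread of genes near background, and the fit with all 17 arrays is an alternative. Genes were named from the 15 largest rises and 15 largest falls with the same sign in both experiments, up to 4 members of each of 49 lists with the smallest p and the member moving most against its list, a fixed set of RGM, BMP, PD-1 and allergy genes, and the 5 called genes with the largest interaction; 154 of these were described. The members and lists were chosen with earlier results of these data known. Promoter windows are RefSeq sequences on GRCm38.p6. Arrays give no read depth, and their number limits the precision. On simulated data with 19751 genes and the same design, 77% of changes of 0.5 log2 units and 99% of changes of 1 were recovered, with 10 false calls among 186. The simulation changed few genes and drew independent noise for each, whereas 18.1% of genes passed here and many moved together. Its false calls therefore do not give the error rate of the real calls. Alternatives were other normalizations and probe set rules, a filter on dim probe sets, a replicate block, each experiment alone and each mouse left out. The mouse numbers did not pair the groups: deviations of same-numbered mice correlated between -0.405 and 0.297.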

Additional observations from a re-analysis of the deposited data

Results flagged for a closer look

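Single mice stood apart from the rest of their group by Dixon's 95% criterion in 38 of 406 sets of values (genes and list means in isotype or anti-RGMb mice); chance flags about 1 in 20 groups. All values are log2 units above the mean of the saline mice in the same experiment, followed by the range of the other mice of the group.

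Anti-RGMb mouse 1 accounts for 16 of them. It was high for Zbp1 (2.21, others 0.16 to 0.55), Mx1 (2.21, others 0.16 to 0.50), Oas1a (2.14, others 0.08 to 0.67) and the interferon-stimulated list as a whole (1.65, others -0.02 to 0.12). It was also high for Cxcl9 (2.53, others 0.56 to 1.18), Cd274 (0.793, others -0.07 to 0.12), Foxp3 (0.571, others 0.31 to 0.40) and Csf2rb (1.04, others 0.68 to 0.78). It was low for Arg1 (0.104, others 3.06 to 4.23), Chil3 (2.25, others 3.43 to 4.01), Alox15 (1.15, others 2.42 to 2.71), Il13 (-0.292, others 0.23 to 0.33), Tfrc (-0.284, others 0.18 to 0.38) and Sdf2l1 (0.412, others 0.60 to 0.70). Its neutrophil list (-0.158, others 0.37 to 0.60) and its smooth muscle list (-0.272, others -0.08 to -0.01) were low as well.

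Anti-RGMb mouse 3-2, whose array had the narrowest spread of values, was high for Il17a (0.279), the BMP ligand list (0.0473) and the thymus list (0.246) and low for Fen1 (-0.0334), Bmp2 (-0.631) and Bhlhe40 (0.188). Anti-RGMb mouse 3 was low for Chrdl1 (-0.876) and high for Actc1 (0.383). Anti-RGMb mouse 2 was low for the alveolar list (-0.144), mouse 1-2 high for C1qa (1.88) and low for Cox5a (-0.000188), and mouse 2-2 low for Itgax (0.755) and high for ribosomal proteins (0.134).

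Among isotype mice, mouse 2 was high for Myl7 (-0.565, others -2.94 to -2.38) and for the heart and striated muscle list (-0.283, others -0.99 to -0.89). Mouse 3 was low for Csf2rb (1.14) and Gusb (0.864) and high for Ntn1 (-0.384). Mouse 1 was low for Oas1a (0.614) and high for plasma cell genes (1.34, others 0.64 to 0.77). Mouse 2-2 was low for Igfbp6 (-1.32), and mouse 1-2 was high for the thymus list (0.193).

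The antibody difference itself differed between the experiments for Ccl2 (interaction -1.67, from -0.13 in experiment 1 to -1.79 in experiment 2) and Havcr1 (interaction -1.12, from -0.03 to -1.15).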

How the results depend on the processing

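Against 3566 genes in the main fit (1895 higher, 1671 lower; 19 and 117 at least 2-fold), 4180 passed in the fit with all 17 arrays, 3819 with median-centred arrays, 3983 after quantile normalization, 3664 without the dimmest 40% of probe sets, 3555 with the mean of probe sets, 3770 with a trended robust prior, 3828 with array weights and 3062 without isotype mouse 2-2 and anti-RGMb mouse 3-2 together, a choice made after seeing the data. With the replicate number as a block, 2234 genes passed (1199 higher, 1035 lower), and as the numbers did not pair the mice this says nothing on the strength of single genes. With no experiment term 0 genes passed in any of these counts (limma, 62 at an unadjusted p under 0.05), since the experiments' levels then enter the spread. Experiment 1 alone gave 781 genes (329 higher, 452 lower, 45 lower at least 2-fold) and experiment 2 alone 48 higher and 303 lower at least 2-fold. With each mouse left out in turn the counts lay between 2722 and 3743 in all, 1366 and 1991 higher, 1281 and 1752 lower, 11 and 27 higher at least 2-fold and 92 and 166 lower at least 2-fold. No named gene changed direction under these alternatives while past the threshold. Of the 154, 16 lost their call under the replicate block, 7 under the trended robust prior, 2 with all 17 arrays and 4 with array weights. In experiment 1 alone 47 lost it, in experiment 2 alone 16, and with no experiment term 133. With single mice left out the largest loss was 11, without isotype mouse 1-2. Arg1 and Chil4 passed with all 17 arrays (adjusted p = 0.02 and 0.026). Signal near background limits the genes that were dim in saline mice.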

Other observations

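Circadian clock genes moved both ways with the antibody. Of 17, 6 were higher and 3 lower, the latter 1 without isotype mouse 1-2 or 2-2 or without both isotype mouse 2-2 and anti-RGMb mouse 3-2. Arntl (0.31 ± 0.06), which drives the clock, and the repressor Cry2 (0.42 ± 0.09) were higher, and Bhlhe40 (-0.62 ± 0.10), a repressor also made by activated T helper cells, was lower. Genes of the unfolded protein response were lower in 11 of 21 (median -0.22), among them the chaperone partner Sdf2l1 (-0.79 ± 0.09) and the disulphide isomerase Pdia6 (-0.43 ± 0.07), and plasma cell genes in 6 of 16 (median -0.35). None of 4 defining plasma cell markers passed. Their sum overlapped in experiment 1 (1037 to 3980 in isotype and 952 to 1422 in anti-RGMb mice) and in experiment 2 (4315 to 4442 and 3986 to 4899).

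Complement genes were lower in 5 of 16, including the chains of C1q. Respiratory chain subunits were lower in 8 of 25 (median -0.16), with Cox5a at -0.47 ± 0.07, but in 4 without anti-RGMb mouse 2 or isotype mouse 1 or 2-2, in 5 without anti-RGMb mouse 1-2 in 2 without isotype mouse 2 and in 4 without both. Adipose genes were higher in 3 of 13, and in 5 without anti-RGMb mouse 2. Erythroid genes were higher in 4 of 8, and in 2 when any 1 of anti-RGMb mice 2, 3, 2-2 and 3-2 or isotype mice 1 and 2-2 was left out, and in 1 without both. Ribosomal protein genes had a median of -0.07 with 1 of 23 lower, and sterol synthesis genes a median of -0.01 with 1 higher and 2 lower of 17, each of these counts reaching 0 or 1 with single mice left out.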
